A study of Rattus norvegicus with 18 samples.

Results

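Transcript levels of Bdnf (ENSRNOG00000047466) and of Ntrk2 (ENSRNOG00000018839) were examined in the dorsal hippocampus (dHC) and the prelimbic cortex (PL) of rats before and after inhibitory avoidance training. The pair was chosen by these IDs in the count files, as a ligand and its receptor, and makes up 2 of 32662 genes counted in each library. In inhibitory avoidance the animal receives a foot shock in a compartment and afterwards stays out of it. Adult rats of the outbred Long-Evans strain were naive (kept in the home cage), or were killed 1 h or 6 d after training. There were 3 independent pools per region and condition, each holding RNA from 5 rats, so that 6 groups and 18 libraries were available. The labels name no transgene and no drug in any group. The sex of the rats is not given in the sources used here. Naive rats stayed in the home cage, so effects of the shock, the context and the learning cannot be told apart. Pooling also hides differences between single rats.

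Bdnf encodes brain-derived neurotrophic factor, a secreted neurotrophin whose transcription rises with neuronal activity and which strengthens synapses in cortex and hippocampus. Ntrk2 encodes TrkB, the receptor tyrosine kinase that binds mature BDNF and signals through the ERK, PI3K and phospholipase C gamma routes. The Bdnf gene has several alternative first exons, each with its own promoter, spliced to a shared coding exon. Ntrk2 gives rise to the full-length kinase and to truncated receptors without a kinase domain, the latter abundant in astrocytes. The counts are sums per gene, so first exons of Bdnf and receptor forms of Ntrk2 were not told apart.

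RefSeq promoter windows on the assembly GRCr8 were available for Bdnf at 6 start sites, all on the plus strand of chromosome 3, and for Ntrk2 at none. GRCr8 is newer than the assembly Rnor_6.0 named for the counts, so these windows describe the gene and were not joined to reads. The 250 bases before each start were searched on both strands for a cAMP response element (CRE, TGACGTCA), its half-site (TGACG), AP-1 (TGANTCA), an E-box (CACGTG), Egr (GCGNGGGCG) and the core bound by Npas4 (TCGTG). The half-site also lies inside the full CRE. The windows of start 1 and start 4 (numbered along the chromosome) are shown because they held the matches to the Npas4 core and the CRE half-site, with matches in capitals.

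Start 1, chr3:116619383-116619632, plus strand: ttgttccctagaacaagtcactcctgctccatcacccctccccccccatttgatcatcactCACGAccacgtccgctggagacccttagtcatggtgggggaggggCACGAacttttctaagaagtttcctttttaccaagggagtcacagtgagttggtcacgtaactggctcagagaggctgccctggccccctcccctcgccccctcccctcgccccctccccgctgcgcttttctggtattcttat

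Start 4, chr3:116637608-116637857, plus strand: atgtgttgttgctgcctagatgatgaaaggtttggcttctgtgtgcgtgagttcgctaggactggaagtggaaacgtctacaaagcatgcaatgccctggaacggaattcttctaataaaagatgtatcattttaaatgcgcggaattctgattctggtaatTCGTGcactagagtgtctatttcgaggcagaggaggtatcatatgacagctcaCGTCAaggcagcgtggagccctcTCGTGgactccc

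Window 4 held the CRE half-site on the minus strand, its first plus-strand base 35 bases before the start, and the Npas4 core at 88 and 12 bases before it. Window 1 held the Npas4 core on the minus strand at 189 and 144 bases. The half-site was found in 1 of 6 Bdnf windows and in 18.2% of 33469 rat windows of that length, and the Npas4 core in 2 of 6 and in 14.2%. AP-1 was found in 1 of 6, window 3, and in 6.34% of all windows. The full CRE, the E-box and the Egr motif were found in 0 of 6, and in 1.59%, 5.59% and 4.29% of all windows. Starts 5 and 6 lie 56 bases apart, so their windows overlap and the 6 windows are not fully separate. These are matches of letters and not measured sites.

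Reads assigned to genes ran from 7463875 to 9215695 per library, and reads that were given to no gene made up 63.3% to 68.3% of all reads. The largest part of these was not aligned (42.0% to 51.8% of all reads), and 10.1% to 13.6% aligned outside any counted feature. Bdnf had 222 to 479 reads per library and Ntrk2 5494 to 8289, far above a limit of 3 counts, which corresponded to 0.326 to 0.402 CPM (a count relative to the gene total of its library). Both genes passed the filter on low counts in every fit. All levels below are CPM with TMM scaling (a correction for library composition) over the 18 libraries. They are not divided by transcript length, so levels of Bdnf and Ntrk2 are not compared with each other. The count files do not pair gene IDs with names and 0 of their IDs were named by the reference table, so markers of the labelled tissues and the other genes of the neurotrophin pathway were not tested. In bulk tissue, fewer cells of a type and less RNA per cell cannot be told apart.

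The plot of levels by library shows how the groups lie. Bdnf was highest on average in PL at 1 h, with 47.1 ± 7.38 CPM (SD, n = 3 in this and all other groups), followed by dHC at 1 h with 46.2 ± 1.45, dHC at 6 d with 41.1 ± 4.81, naive dHC with 38.8 ± 3.86, PL at 6 d with 30.6 ± 1.74 and naive PL with 28.8 ± 2.21. Libraries of neighbouring groups in this order overlapped, except between naive dHC and PL at 6 d. That pair differs in region and condition, and its share of genes without overlap was not computed. Between the regions within 1 condition, 50.8% (6 d) to 57.5% (1 h) of genes failed to overlap, so such a gap is common. Ntrk2 was highest in dHC at 1 h with 870 ± 36.9 CPM, followed by dHC at 6 d with 826 ± 51.1, naive dHC with 805 ± 44.1, naive PL with 783 ± 7.22, PL at 1 h with 764 ± 22.3 and PL at 6 d with 746 ± 27.4. For Ntrk2, all neighbours in the order overlapped.

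**Figure D1:**
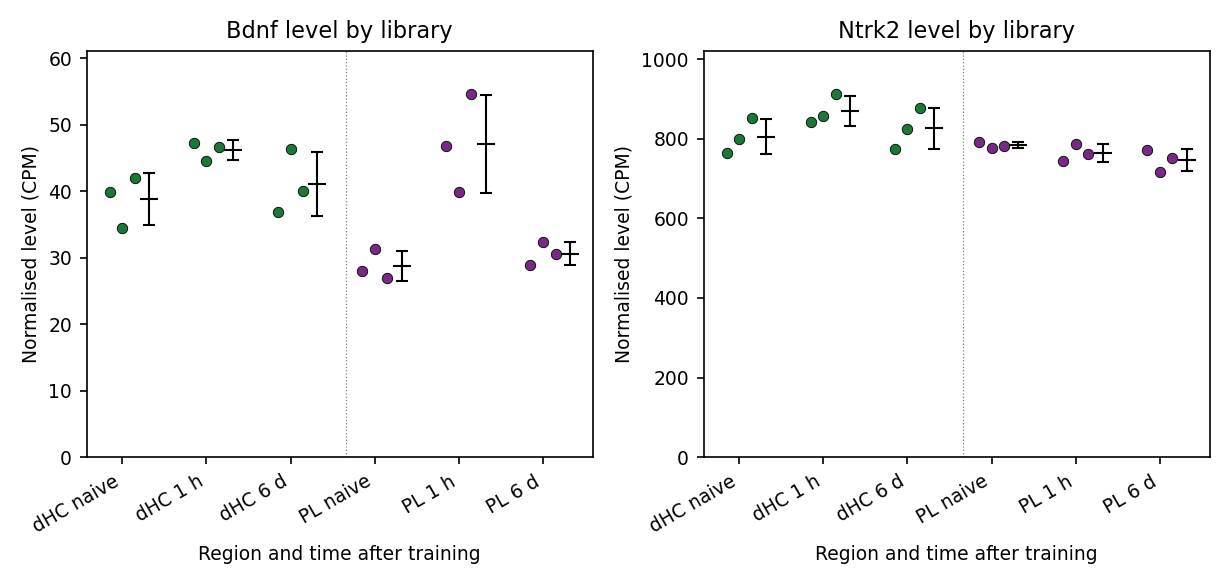
Level in CPM (vertical axis, from 0) of Bdnf and Ntrk2 in each of 18 libraries, by region and time. Points are libraries, in the order of the replicate number, and the bar beside them is the mean with its SD (n = 3). Bdnf of PL at 1 h lies between 39.9 and 54.6 CPM, above all naive and 6 d libraries of PL, while Ntrk2 lies between 717 and 912 CPM throughout.

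The first question was whether the ligand changed in PL soon after training. Bdnf stood at 28.0, 31.3 and 27.0 CPM in the 3 naive PL pools and at 46.9, 39.9 and 54.6 CPM in the PL pools killed at 1 h. Every pool at 1 h was above every naive pool, as the groups failed to overlap for 20.8% of 14318 genes in this comparison. Bdnf rose 1.64-fold (95% interval 1.42 to 1.91, edgeR adjusted p = 0.000322), or by 0.72 on the log2 scale (SE 0.10). Genes called higher, that is with an adjusted p under 0.05, were 0.782% of the genes tested. By its p Bdnf was number 27 of 14318 genes, and by the size of its rise number 52 of the 112 genes called higher. The pools at 1 h also spread most, with a coefficient of variation of 15.7% where counting alone gives 4.93%.

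Ntrk2, the receptor gene, stood at 791, 777 and 781 CPM in naive PL and at 743, 788 and 761 CPM at 1 h. The groups overlapped. The log2 fold change was −0.03 (SE 0.05, edgeR adjusted p = 0.845) with a 95% interval of 0.910 to 1.06 in fold, so a change of the size seen for Bdnf lies outside the interval.

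In dHC the difference in Bdnf between 1 h and naive did not pass the test. The naive pools stood at 40.0, 34.5 and 42.0 CPM and the 1 h pools at 47.3, 44.6 and 46.7 CPM. The groups did not overlap, as for 17.4% of 14305 genes. The log2 fold change was 0.25 (SE 0.09), or 1.19-fold with a 95% interval of 1.04 to 1.35. The edgeR unadjusted p was 0.0139 and the adjusted p 0.326, in a comparison that called 0.224% of genes in either direction. Depth moved with the groups here, with at least 8914752 gene reads in each 1 h pool of dHC and at most 8874826 in a naive one, and the part of depth in this difference was not tested.

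For Ntrk2 the dHC pools stood at 764, 799 and 851 CPM when naive and at 841, 857 and 912 CPM at 1 h, with overlap of the highest naive and the lowest 1 h pool. The log2 fold change was 0.11 (SE 0.06, edgeR adjusted p = 0.506), with a 95% interval of 0.995 to 1.17 in fold. The plot of all genes at 1 h shows Bdnf among the called genes in PL and inside the cloud of genes not called in dHC.

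**Figure D2:**
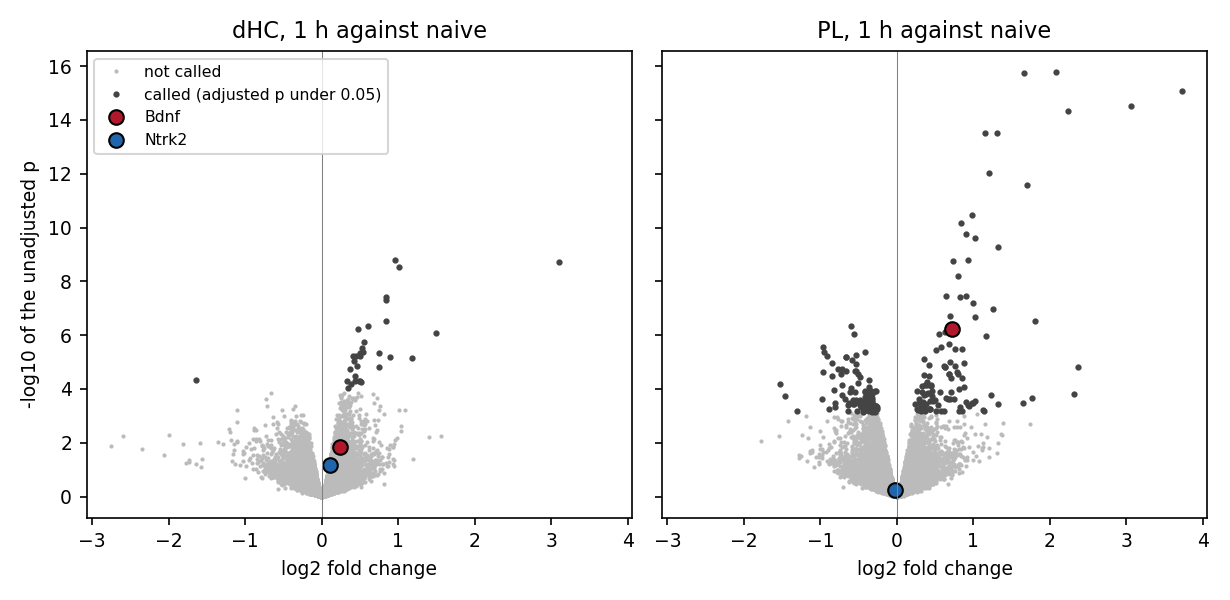
Log2 fold change (horizontal) against −log10 of the unadjusted edgeR p (vertical) for all genes tested at 1 h against naive in dHC and PL. Bdnf (red) lies at 0.25 in dHC and 0.72 in PL, and Ntrk2 (blue) at 0.11 and −0.03. Dark points are genes with an adjusted p under 0.05.

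Whether the 1 h change differed between the regions was tested directly. For Bdnf the difference in log2 fold change, dHC minus PL, was −0.46 (SE 0.15, 95% interval −0.76 to −0.16). It did not pass over all genes (edgeR unadjusted p = 0.00378, adjusted p = 0.386), where 0.0947% of 14784 genes did. A regional difference in the Bdnf response was thus not called by this test, although the 1 h change passed in PL and missed in dHC. For Ntrk2 the difference was 0.15 (SE 0.08, edgeR adjusted p = 0.711).

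By 6 d, Bdnf in PL stood at 28.9, 32.4 and 30.6 CPM, overlapping with the naive pools. Against naive the log2 fold change was 0.09 (SE 0.11, edgeR adjusted p = 0.999), with a 95% interval of 0.912 to 1.25 in fold that leaves out the 1.64-fold seen at 1 h. Compared directly with 1 h, Bdnf fell by 0.62 on the log2 scale (SE 0.10, edgeR adjusted p = 0.00114), to 0.649 of its 1 h level (95% interval 0.559 to 0.752). No 6 d pool reached the lowest 1 h pool, as the groups failed to overlap for 19.9% of genes, and 1.05% of genes were called lower. Both comparisons of 1 h use the same 1 h libraries, and both comparisons with naive the same naive libraries.

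Ntrk2 in PL at 6 d stood at 771, 717 and 751 CPM. All 3 lay below the lowest naive pool of 777 CPM, a separation found for 8.12% of genes. The log2 fold change against naive was −0.06 (SE 0.05, edgeR adjusted p = 0.999) and the 95% interval 0.889 to 1.03 in fold. Against 1 h it was −0.03 (SE 0.05, edgeR adjusted p = 0.823), with overlapping pools.

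In dHC at 6 d, Bdnf stood at 37.0, 46.4 and 40.0 CPM and Ntrk2 at 775, 826 and 877 CPM. Both overlapped with the naive and the 1 h pools. The groups failed to overlap for 9.36% of genes against naive and for 18.3% against 1 h. Against naive the log2 fold changes were 0.08 for Bdnf (SE 0.09, edgeR adjusted p = 0.946) and 0.04 for Ntrk2 (SE 0.06, edgeR adjusted p = 0.963). The sign turned without 6 d pool 2 for Bdnf (−0.02), and without 6 d pool 3 (−0.01) or naive pool 1 (−0.0002) for Ntrk2. Against 1 h they were −0.17 for Bdnf (SE 0.09, edgeR adjusted p = 0.429) and −0.07 for Ntrk2 (SE 0.06, edgeR adjusted p = 0.605), in a comparison that called 1.10% of genes. With a library left out these ran from −0.26 (without 6 d pool 2) to −0.10 (without 6 d pool 1) for Bdnf and from −0.12 to −0.04 for Ntrk2. Depth moved with these groups too. Gene reads were at most 8806419 in a 6 d pool of dHC and at least 8914752 in each 1 h pool. The part of depth in the difference from 1 h was not tested. Against naive, 0% of genes were called by edgeR at 6 d in either region. At an unadjusted p under 0.05 there were 804 of 14305 genes in dHC and 497 of 14318 in PL, and DESeq2 called 0 in both. A share of about 0.05 would fall there without any change. The regional difference of the 6 d change was −0.005 for Bdnf (SE 0.15) and 0.11 for Ntrk2 (SE 0.08), with an edgeR adjusted p of 1.00 for each and 0% of genes called. The sign for Bdnf turned without any one of 7 of the 12 libraries compared, at up to 0.06. At an unadjusted p under 0.05 there were 558 of 14784 genes for that difference with edgeR, and DESeq2 called 0.

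**Figure D3:**
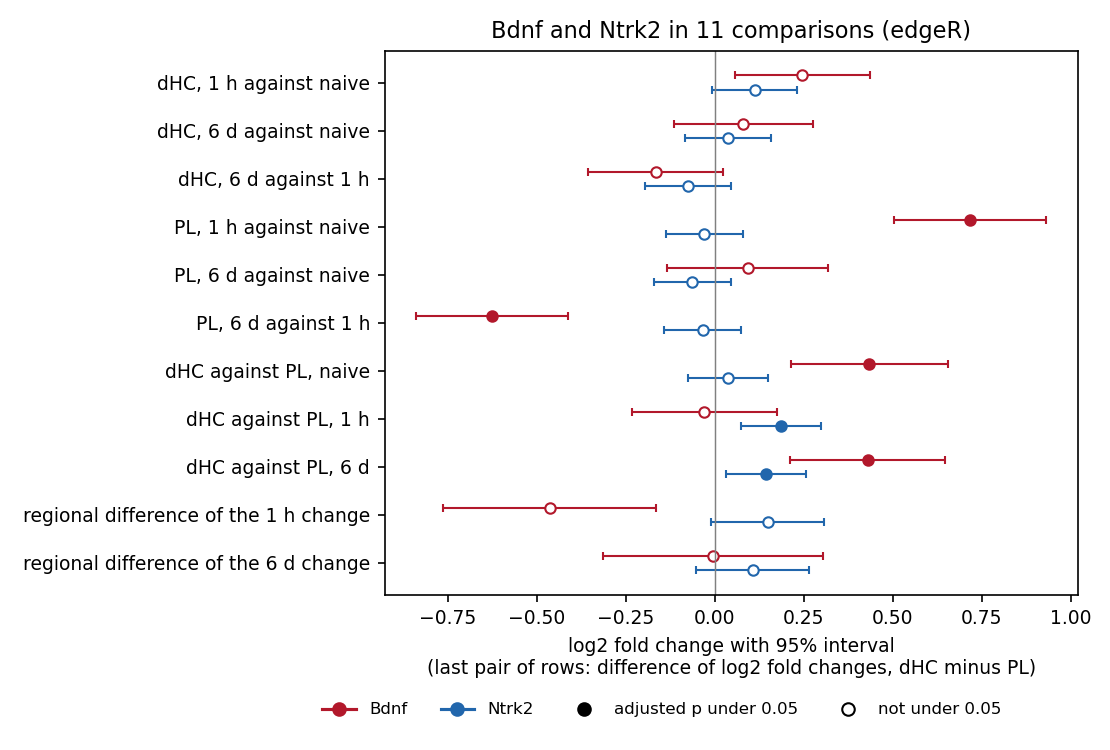
Log2 fold change with its 95% interval (horizontal) for Bdnf (red) and Ntrk2 (blue) in 11 comparisons. Filled points have an edgeR adjusted p under 0.05. Bdnf is filled for PL at 1 h against naive (0.72), PL at 6 d against 1 h (−0.62) and the regions when naive (0.43) and at 6 d (0.43), and Ntrk2 for the regions at 1 h (0.19) and 6 d (0.15).

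The regions were next compared within each condition, over all 18 libraries. In naive rats every dHC pool had more Bdnf than every PL pool, as the regions failed to overlap for 54.3% of genes. The level was 1.35-fold higher in dHC (95% interval 1.16 to 1.57), a log2 difference of 0.43 (SE 0.11, edgeR adjusted p = 0.00138). Genes called higher in dHC were 22.9% of those tested, so such a difference was common between these tissues. At 1 h the Bdnf pools of the regions overlapped. The log2 difference was then −0.03 (SE 0.10, edgeR adjusted p = 0.837), with a 95% interval of 0.851 to 1.13 in fold. Its sign turned without PL pool 3 at 1 h (0.09, edgeR adjusted p = 0.505, in a range of 0.324 to 0.994 over 12 alternatives). At 6 d the dHC pools were again all higher, by 1.35-fold (95% interval 1.16 to 1.57, log2 difference 0.43, SE 0.11, edgeR adjusted p = 0.00145). Genes called higher in dHC at 6 d were 23.0%, and the regions failed to overlap for 50.8%.

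Ntrk2 did not differ beyond its spread between naive regions. The log2 difference was 0.04 (SE 0.05, edgeR adjusted p = 0.601), with a 95% interval of 0.950 to 1.11 in fold. At 1 h all dHC pools were above all PL pools, by 1.14-fold (95% interval 1.05 to 1.23, log2 difference 0.19, SE 0.05, edgeR adjusted p = 0.00581). Non-overlap was seen for 57.5% of genes, and 23.9% were called higher in dHC at 1 h. At 6 d the dHC level was 1.11-fold higher (95% interval 1.02 to 1.20, log2 difference 0.15, SE 0.05, edgeR adjusted p = 0.0317), again without overlap. At that time 50.8% of genes did not overlap and 23.0% were called higher in dHC. This last call was lost without dHC pool 3 at 6 d (log2 difference 0.11, edgeR adjusted p = 0.148), without PL pool 2 (0.12, adjusted p = 0.108) and without PL pool 3 (0.16, adjusted p = 0.0511). It was also lost with only the 6 d groups in the fit (0.14, adjusted p = 0.120). Over 12 alternatives this edgeR or DESeq2 adjusted p ran from 0.00790 to 0.148. The change in the Ntrk2 difference from naive to 1 h or 6 d is the regional difference of the training response given above, which did not pass.

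The number of Bdnf reads per 1000 Ntrk2 reads of the same library does not depend on how libraries are scaled to each other. In PL it was 35.4, 40.2 and 34.6 in naive pools, 63.0, 50.6 and 71.8 at 1 h and 37.5, 45.1 and 40.7 at 6 d. The 1 h pools of PL therefore lay above all naive and 6 d pools of PL without any scaling. The ratio reuses the Bdnf reads of the levels above, so it is no separate support. How often ratios of other genes separate so was not computed. For levels of single genes in PL the groups failed to overlap for 20.8% (1 h against naive) and 19.9% (6 d against 1 h). In dHC it was 52.4, 43.3 and 49.3 in naive pools, 56.2, 52.0 and 51.3 at 1 h and 47.7, 56.2 and 45.6 at 6 d. These groups overlapped, unlike the Bdnf level of dHC at 1 h against naive. The ratio is a description and was not tested.

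**Figure D4:**
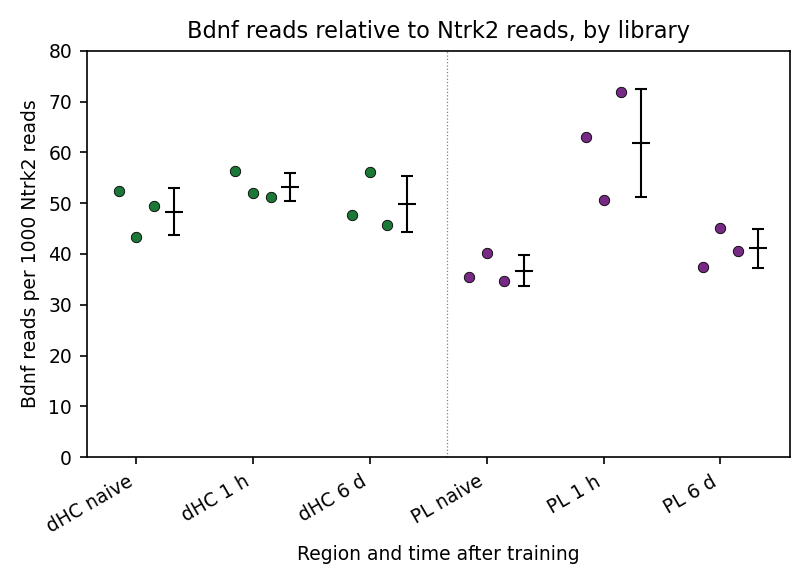
Bdnf reads per 1000 Ntrk2 reads (vertical axis, from 0) in each of 18 libraries, by region and time. Points are libraries and the bar beside them is the mean with its SD (n = 3). PL at 1 h has a mean of 61.8 against 36.7 in naive PL, and the dHC means lie between 48.3 and 53.2.

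It was then asked whether ligand and receptor transcripts varied together among pools of the same group, after each group's mean log2 CPM was subtracted. Over the 18 libraries Pearson's r was −0.03 (exact permutation within groups, p = 0.936, adjusted p = 0.936) and Spearman's rho −0.08 (p = 0.803, adjusted p = 0.803). Over the 9 PL libraries r was −0.59 (exact permutation p = 0.157, adjusted p = 0.472) and rho −0.72 (p = 0.0556, adjusted p = 0.167), and over the 9 dHC libraries r was 0.32 (exact permutation p = 0.514, adjusted p = 0.771) and rho 0.25 (p = 0.606, adjusted p = 0.803). All tests were two-sided and adjusted over the 3 sets. Without the 2 libraries farthest from the median of Bdnf, r was 0.11 over all, −0.62 in PL and −0.003 in dHC, so the value in dHC rests on those libraries. The group means subtracted here were still those of all pools. In PL and over all, the libraries left out were 1 h pools 2 and 3 of PL, so these r are not purely within groups. No relation between the pair passed.

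Genes whose pattern was most like that of Bdnf were taken from 11527 other genes with a mean of at least 5 CPM, by Pearson's r of log2 CPM over the 18 libraries after each region's mean was subtracted. The nearest was ENSRNOG00000023509 with r = 0.90. It went from 84.0 CPM in naive PL to 131 at 1 h and 79.8 at 6 d. In dHC it was at 110 CPM at 1 h and at 93.4 at 6 d. Its log2 fold change at 1 h was 0.65 in PL (edgeR adjusted p = 2.63e-05) and 0.21 in dHC (edgeR adjusted p = 0.232). The next was ENSRNOG00000018294 with r = 0.88, whose log2 fold change at 1 h was 0.35 in PL (edgeR adjusted p = 0.00259) and 0.16 in dHC (edgeR adjusted p = 0.294). The values nearest to Ntrk2 were lower, at r = 0.87 and 0.85, and neither of these genes was called after training in either region. The correlations describe these libraries. Both genes of a correlation share the depth and the condition of each library, and differences between conditions were left in. These genes were picked by their likeness over the same libraries, so their changes are no independent support for that of Bdnf.

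The spread among pools of a group was set against counting error for both genes. The coefficient of variation of Bdnf ran from 3.14% in dHC at 1 h to 15.7% in PL at 1 h, where counting alone gives 4.91% to 6.31%. For Ntrk2 it ran from 0.922% in naive PL to 6.19% in dHC at 6 d, where counting alone gives 1.13% to 1.26%. Some groups spread less than counting alone gives. These were Bdnf in dHC at 1 h (3.14% against 4.91%) and in PL at 6 d (5.68% against 6.22%), and Ntrk2 in naive PL (0.922% against 1.21%). With 3 pools a group these coefficients are imprecise, and their difference from counting error was not tested. In current RefSeq models, 7 long noncoding genes overlap Ntrk2 and none overlaps Bdnf. As the strand setting of the counting is not given in the sources used here, the Ntrk2 counts are uncertain to the extent that such transcripts were read.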

How the data were processed

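Polyadenylated RNA of 18 pools was sequenced from a stranded library kit in pairs of 150 nt, per the labels' protocols. The authors deposited whole-number read counts per Ensembl gene and library, not normalized. The submitters' processing notes name Rnor_6.0, Picard 1.126, bedtools 2.17.0 and DESeq2. Which aligner, counter and annotation release were used is not given in the sources used. Rows for reads given to no gene stayed out of library sizes and tests. Replicate pairs differed by more than sampling noise (chi-square per degree of freedom 1.67 to 4.98 over 18 pairs).

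Counts were tested in R 4.3.3 with edgeR 4.0.16 (quasi-likelihood F test, two-sided, TMM factors, filterByExpr, Benjamini-Hochberg adjustment over all genes tested). Comparisons within a region used its 9 libraries, and those between regions all 18. Standard errors were derived from the F statistic and intervals are at 95%. Log2 CPM used a prior count of 2. The 2 genes nearest to each member were named by rule, for Bdnf by ID. Alternatives were DESeq2 1.42.0, RLE factors, no low-count filter, other sets of libraries, the replicate number as a block and each library left out. The fit was also run on counts simulated from its own model, which cannot show how well that model suits these pools. Promoter windows came from RefSeq (GRCr8). The members, motifs and lists were chosen with earlier results of these data known. The labels' pools are independent, so p-values weigh a difference against the spread between pools, and intervals of fold changes rest on the same spread. The main tests between regions also took the pools of dHC and PL as independent of each other. A possible sharing of rats between dHC and PL pools was not modelled in them.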

Additional observations from a re-analysis of the deposited data

How the results depend on the processing

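The 22 results for Bdnf and Ntrk2 were refitted 288 times in all. In 272 of these fits the direction and the side of the threshold stayed as reported, including every fit for the Bdnf rise in PL at 1 h (log2 0.59 to 0.82, adjusted p 1.74e-11 to 0.00673 over 12 fits) and its fall by 6 d (adjusted p 9.21e-09 to 0.0163). The Ntrk2 excess in dHC at 6 d no longer passed with only the groups compared (0.14) or with a replicate block by condition and number (0.14, adjusted p = 0.0595), and ran from 0.11 to 0.19 with a library left out. Changes not called crossed 0 with a library left out: Bdnf in dHC at 6 d (−0.017 to 0.15), Ntrk2 there (−0.0099 to 0.080), Bdnf between regions at 1 h (−0.13 to 0.093) and its regional difference at 6 d (−0.11 to 0.060). The correlation of the pair was 0.035 with RLE factors. The cause was not tested.

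Deviations of same-numbered pools of a region correlated at −0.060 to 0.20 (mean 0.042), over 0.1 in 3 of 18 pairs. Differently numbered pools of a region correlated at −0.17 to 0.13 (mean −0.021), over 0.1 in 3 of 36 pairs. Closest on average to their own number, out of the 3 numbers in their region, were 10 of 18 libraries. Whether same-numbered pools shared more than a number was not tested. With the replicate block Bdnf in PL at 1 h was at 0.71, and 150 genes were called at 1 h in dHC and 312 in PL. Genes called at 1 h ran from 14 to 275 in dHC (32 reported) and 87 to 564 in PL (206). At 6 d against 1 h they ran from 18 to 623 in dHC (158) and 149 to 675 in PL (317). For the regional difference at 1 h they ran from 6 to 117 (14). At 6 d against naive up to 31 were called in dHC and up to 8 in PL (0 each). For the regional difference of the 6 d change it was up to 12 (0).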
